A study of Mus musculus with 7 samples.

Results

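The SLC25 family comprises the nuclear-encoded solute carriers that sit mainly in the inner membrane of mitochondria. Its members were taken as every array probe set annotated to exactly 1 gene symbol made of Slc25a and a number, which gave 93 probe sets for 44 genes, out of 18193 genes tested. One further probe set, annotated to both Gm16867 and Slc25a37, was left out. Quadriceps femoris muscle of mice transgenic for mutant Twinkle (the helicase that opens mitochondrial DNA for copying) was compared with that of wild-type mice on 1 Affymetrix array per sample. The series title and design call the transgenic line a model of progressive external ophthalmoplegia, a mitochondrial myopathy, and place the study in work on the hormone FGF21. There were 3 arrays labelled mutant, from mice of 24, 24 and 21 months (replicates 1 to 3), and 4 labelled wild-type, of 26, 24, 21 and 23 months (replicates 1 to 4). The labels call the samples of a group biological replicates. The sources used here do not give the promoter that drives the transgene, the strain or the sex, and name no diet or treatment.

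Mitochondria are closed to most charged metabolites, so ADP, ATP, phosphate, acylcarnitines, amino acids, nucleotides and coenzymes cross the inner membrane on dedicated carriers. Most members of the SLC25 family share a fold of repeated modules and many work as exchangers, taking 1 substrate in for another going out. In muscle the most abundant member is the ADP/ATP carrier Slc25a4 (also called ANT1), whose dominant mutations in humans cause the same kind of ophthalmoplegia with mitochondrial DNA deletions as those of Twinkle.

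The deposited values are taken here as log2 values, each relative to the median of its probe set over the 7 arrays. They carry differences between arrays and no absolute level, so 0 means the level of the median array. The spacing of the stored numbers gives a rough class for the level before that centring. By its most probable class, the median array lay between 8 and 16 on the log2 scale for 12 carriers (27.3%, against 18.5% of all genes), between 4 and 8 for 27 (61.4%, against 51.5%) and between 2 and 4 for 5 (11.4%, against 30%). The brightest class held Slc25a3, Slc25a4, Slc25a5, Slc25a11, Slc25a12 and Slc25a20 among others. The dimmest held the testis ADP/ATP carrier Slc25a31 with Slc25a2, Slc25a18, Slc25a41 and Slc25a54.

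The probe set of Twnk, the mouse gene of Twinkle, was at -0.15, 0.44 and 0.00 on the arrays labelled mutant (replicates 1 to 3) and at 0.34, -0.13, -0.14 and 0.15 on those labelled wild-type (replicates 1 to 4), a difference of 0.04 ± 0.18 (limma standard error; mutant minus wild-type). The groups overlapped, so the genotype labels could not be checked on this gene, and the sources used here do not say whether the probe set lies in the transcript of the transgene; mutant and wild-type are therefore used throughout as the labels give them. All 10 muscle fibre markers lay in the class of 8 to 16, while none of 10 cerebellum markers did; the sample titles and tissue entries name muscle, and the free-text descriptions name cerebellum. Within the wild-type group the arrays differed in the mean of other marker lists. Slow fibre genes were at -3.40 in replicate 1 and -2.09 in replicate 2 against -0.10 to 0.73 on the other 5 arrays. Adipocyte genes (7 of 9 measured, all in the classes above 4) ranged from -0.50 to 0.21 on the mutant arrays and from -1.23 (replicate 1) to 1.31 (replicate 3) on the wild-type arrays. The Gapdh 5′ probe set, relative to its 3′ probe set, was at -0.55 in wild-type replicate 3 and between -0.04 and 0.09 elsewhere. The same difference for beta-actin was -0.14, -0.0081 and -0.10 on the mutant arrays and 0.02, 0.12, 0.12 and 0.08 on the wild-type arrays, so it was lower on every mutant array; its part in the genotype differences below was not tested. The 18S rRNA probe set was at 3.19 in mutant replicate 1 and between -0.77 and 0.56 elsewhere. In whole muscle, fewer cells of a type and less RNA per cell cannot be told apart.

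RefSeq promoters (build GRCm38.p6; 250 bases before to 50 after a transcription start) were at hand for 34 of the 44 carriers, in 43 entries. The 3 shown are those of the muscle and the general ADP/ATP carrier, Slc25a4 and Slc25a5, whose values took different courses over the arrays below, and that of Slc25a25, an ATP-Mg/phosphate carrier with the second lowest genotype difference of the family. Capitals mark every match to the letters searched, on either strand. Slc25a4 lies at chr8:46211013-46211312 (minus strand), Slc25a5 at chrX:36795347-36795646 (plus strand) and the shown 1 of 3 starts of Slc25a25 at chr2:32424017-32424316 (minus strand).
Slc25a4: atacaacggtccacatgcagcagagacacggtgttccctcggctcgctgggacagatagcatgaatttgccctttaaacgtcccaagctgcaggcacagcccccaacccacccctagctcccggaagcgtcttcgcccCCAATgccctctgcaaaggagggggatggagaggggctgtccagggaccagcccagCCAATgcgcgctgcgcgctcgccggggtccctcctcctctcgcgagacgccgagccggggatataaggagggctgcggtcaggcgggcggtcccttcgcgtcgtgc
Slc25a5: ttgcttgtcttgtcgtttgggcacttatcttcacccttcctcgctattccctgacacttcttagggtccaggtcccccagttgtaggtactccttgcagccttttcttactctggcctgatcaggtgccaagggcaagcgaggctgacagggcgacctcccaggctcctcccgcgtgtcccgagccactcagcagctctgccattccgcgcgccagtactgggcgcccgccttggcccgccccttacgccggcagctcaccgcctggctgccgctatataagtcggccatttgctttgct
Slc25a25: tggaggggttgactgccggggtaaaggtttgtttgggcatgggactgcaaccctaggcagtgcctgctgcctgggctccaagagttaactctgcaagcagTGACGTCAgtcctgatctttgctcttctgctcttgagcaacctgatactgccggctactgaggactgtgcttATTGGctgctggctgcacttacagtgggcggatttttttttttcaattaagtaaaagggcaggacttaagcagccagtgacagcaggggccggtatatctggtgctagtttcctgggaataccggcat

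The Slc25a4 promoter held 2 CCAAT boxes, that of Slc25a5 none of the motifs searched, and that of Slc25a25 a cAMP response element (TGACGTCA) and a CCAAT box on the opposite strand (ATTGG). Over the family, the cAMP response element was in 2 of 43 promoters (Slc25a25 and the pyrimidine nucleotide carrier Slc25a36; 4.65%, against 1.79% of 32851 promoters in the table). The E-box CACGTG was in 8 (18.6%, against 7.15%), for 7 genes, and CCAAT in 21 (48.8%, against 37.4%), for 18 genes. AAGGTCA, the element of oestrogen-related receptors, was in 1, that of Slc25a34 (4.72% of all promoters), and TATAAA in 1, that of Slc25a18 (13.6% of all). The NRF-1 core CGCATGCG and the CHOP-ATF4 element TGATGNAA were in none of the 43 (1.87% and 3.97% of all). No searched motif lies within another, and a match is a description of the letters, not a binding site.

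No carrier passed the test for a genotype difference. In the limma fit over all 18193 genes, 0 of 44 carriers had a Benjamini-Hochberg adjusted p below 0.05 and the smallest adjusted p among them was 1.00; in the same fit 0.00% of all genes passed. At an unadjusted p below 0.05 there was 1 carrier measured higher in mutant muscle, Slc25a27, against 0.748% of all genes, and 1 measured lower, Slc25a44, against 0.676%. Differences ranged from -0.47 (Slc25a44) to 0.32 (Slc25a27), and none of the 44 exceeded 0.5 in size (0.687% of all genes did). For 42 carriers the 95% interval of the difference spanned 0. The difference was smaller than the pooled SD within groups for 40 of 44 carriers (90.9%, against 82.2% of all genes).

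**Figure D1:**
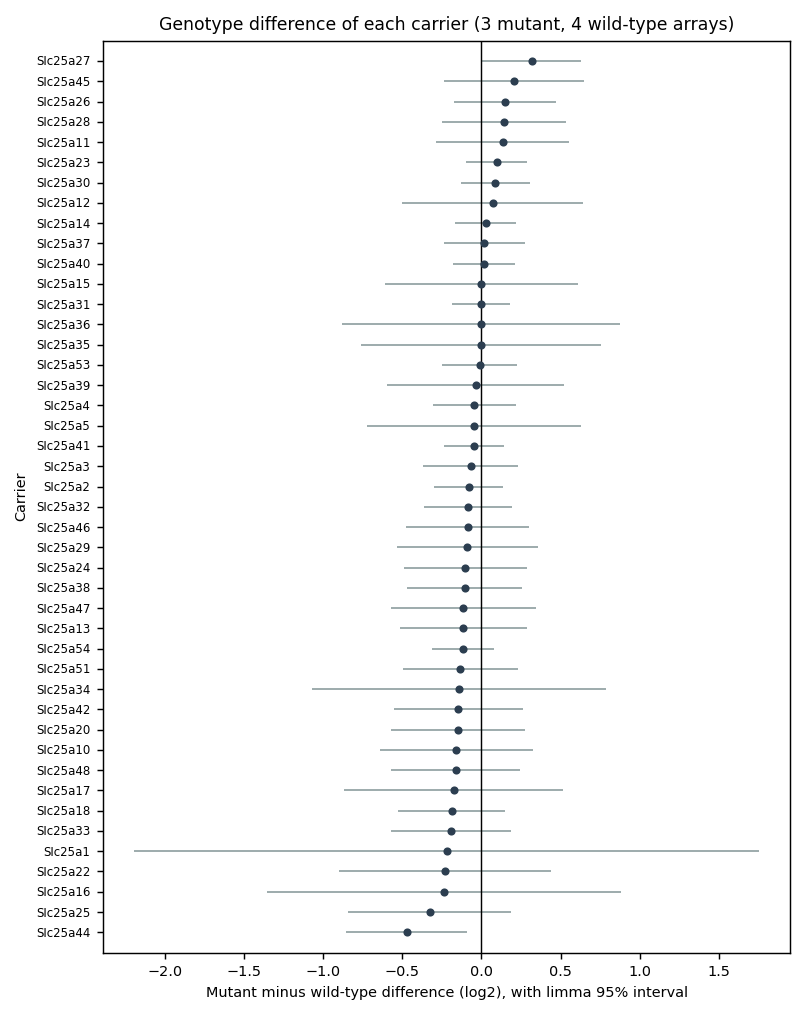
The 44 carriers ranked by mutant minus wild-type difference (horizontal axis, log2; 3 mutant and 4 wild-type arrays). Points are limma estimates and bars their 95% intervals; the intervals of Slc25a27 at the top and Slc25a44 at the bottom do not reach 0, and the other 42 span it.

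By direction, 12 carriers were measured higher and 32 lower in mutant muscle (72.7% lower, against 53.5% of all genes), with a median difference of -0.08 against -0.01 over all genes. That median rested on single arrays. Without mutant replicate 3 it was -0.01 with 20 of 44 higher (47.1% of all genes were higher). Without wild-type replicate 3 it was -0.03 with 19 higher (49.0% of all genes). It was -0.04 without mutant replicate 2, and also -0.04 when all probe sets of a gene were averaged. Mutant replicate 3 was the lowest array for 9 carriers (20.5%, against 9.27% of all genes) and the highest for 0 (7.92% of all genes). Wild-type replicate 3 was the highest array for 16 carriers (36.4%, against 24.7% of all genes). The median over carriers was -0.06 in mutant replicate 3, 0.06 in wild-type replicate 3 and 0.00 on the other 5 arrays, while the median over all genes was 0.00 on each. The wild-type array that was highest for the largest number of carriers is the one with the highest adipocyte mean (1.31) and the lowest Gapdh 5′ to 3′ difference (-0.55); their part in the result was not tested.

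**Figure D2:**
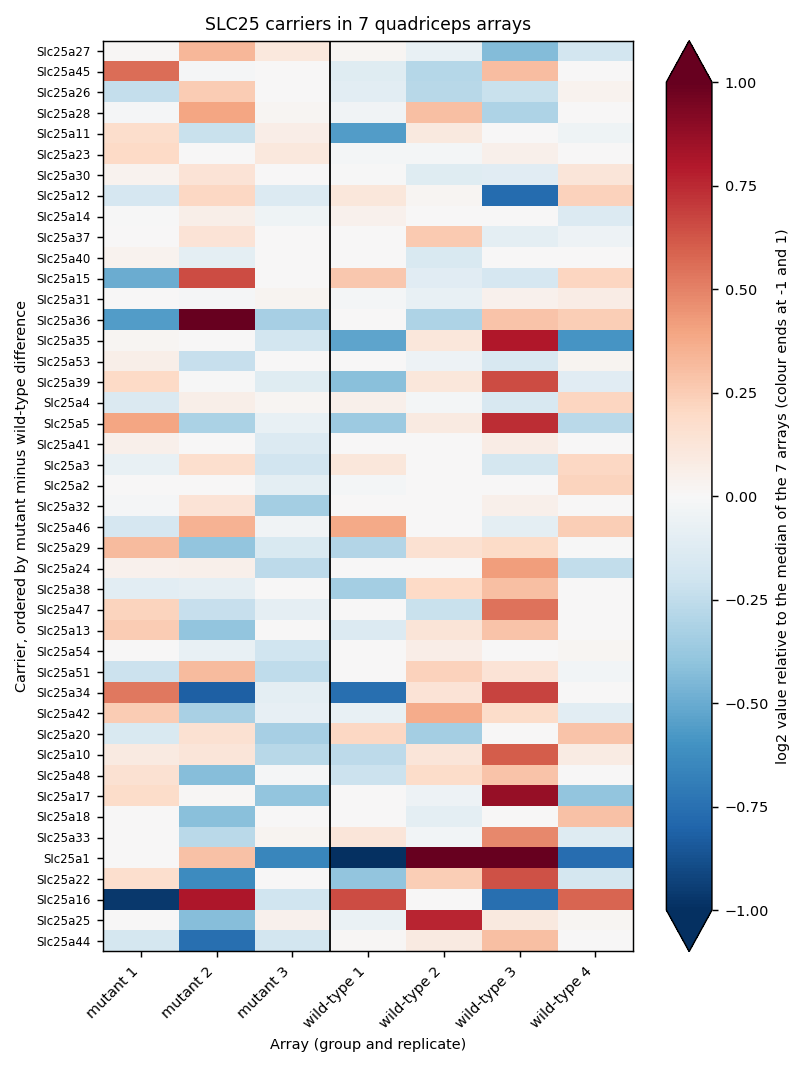
Values of the 44 carriers (vertical, ordered by genotype difference) on the 7 arrays (horizontal; the line parts mutant from wild-type), as log2 value relative to the median of the 7 arrays; colours end at -1 and 1. Wild-type replicate 3 holds the highest value of 16 carriers and the lowest of 5, and mutant replicate 3 the highest of none.

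The ADP/ATP carriers export ATP made in the matrix in exchange for cytosolic ADP. All 3 were measured, and their differences were close to 0. Slc25a4, the heart and muscle form, was at -0.15, 0.05 and 0.02 on the mutant arrays and at 0.05, -0.02, -0.16 and 0.21 on the wild-type arrays. The mutant values lay inside the wild-type range. The difference was -0.04 ± 0.11 (SE, limma; 95% interval -0.31 to 0.22; exact two-sided permutation p = 0.80, 3 against 4 arrays), and it was 0.02 without wild-type replicate 4 or without mutant replicate 1. Slc25a5 (ANT2), the form of proliferating and non-muscle cells, was at 0.39, -0.31 and -0.07 on the mutant arrays and at -0.36, 0.09, 0.74 and -0.27 on the wild-type arrays. It spread over 1.10 log2 units, with wild-type replicate 3 and mutant replicate 1 high and the groups overlapping, and its difference was -0.05 ± 0.29; quantile normalisation turned it to 0.03. The difference of Slc25a31, the testis form in the dimmest class, was -0.0009 ± 0.08. Slc25a3, which brings in the phosphate used with ADP for ATP synthesis, was at -0.07, 0.17 and -0.19 against 0.11, 0.00, -0.17 and 0.21, a difference of -0.07 ± 0.13.

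Slc25a4 and Slc25a5 carry the same exchange but did not move together over the 7 arrays. Wild-type replicate 3 was the lowest array for Slc25a4 (-0.16) and the highest for Slc25a5 (0.74), and mutant replicate 1 was the second lowest for Slc25a4 and the second highest for Slc25a5. Markers of fibroblasts, a cell type that uses the general form, had means of 0.93 in wild-type replicate 3 and 0.70 in mutant replicate 1, against -0.35 to 0.06 on the other arrays. Leukocyte markers had means of 0.28, -0.11 and -0.0082 on the mutant arrays and of -0.63, 0.14, 0.71 and -0.63 on the wild-type arrays, also highest in wild-type replicate 3 and mutant replicate 1. The part of either cell type in the spread of Slc25a5 was not tested. Muscle fibre genes were at -0.36 in wild-type replicate 3 and at -0.11 in mutant replicate 1, the 2 lowest of the 7 means.

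Carnitine carriers and their relatives bring fatty acids into the matrix as acylcarnitines or move related basic compounds. Of 5 members 1 was measured higher and 4 lower in mutant muscle (-0.16 to 0.20, median -0.11), none past the test. Slc25a20, the carnitine-acylcarnitine translocase of beta-oxidation, was at -0.15, 0.15 and -0.33 on the mutant arrays and at 0.21, -0.34, 0.00 and 0.29 on the wild-type arrays. Both groups reached from below -0.3 to above 0.1, and the difference was -0.15 ± 0.18, or -0.04 without mutant replicate 3. Slc25a29, which carries basic amino acids and was first described as a carnitine carrier, had a difference of -0.09 ± 0.19. Slc25a45, Slc25a47 and Slc25a48 are less studied relatives. Slc25a45 ranked second highest of the family, at 0.56, -0.01 and 0.00 against -0.12, -0.28, 0.31 and 0.00. Its difference of 0.20 ± 0.19 rested on mutant replicate 1, without which it was 0.02. Slc25a47 and Slc25a48 differed by -0.11 ± 0.20 and -0.16 ± 0.17.

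Glutamate carriers feed the malate-aspartate shuttle and the matrix glutamate pool. One of 4 was measured higher and 3 lower (-0.23 to 0.07), none past the test. Slc25a12 (aralar), the aspartate-glutamate carrier of excitable tissue, was at -0.17, 0.21 and -0.14 on the mutant arrays and at 0.11, 0.02, -0.77 and 0.23 on the wild-type arrays. The only array far from the rest was wild-type replicate 3. The difference was 0.07 ± 0.24, and it was -0.15 without that array and -0.06 after quantile normalisation. Slc25a13 (citrin), the form best known from liver, was at 0.25, -0.39 and 0.00 against -0.14, 0.13, 0.29 and 0.00, a difference of -0.11 ± 0.17. The glutamate-proton symporter Slc25a22 was at 0.17, -0.63 and 0.00 against -0.40, 0.24, 0.64 and -0.18. Its difference of -0.23 ± 0.29 was 0.01 without mutant replicate 2, the lowest array. Its partner Slc25a18, in the dimmest class, differed by -0.19 ± 0.14, and by -0.05 without mutant replicate 2.

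Carriers of nucleotides, coenzymes and vitamins set the matrix pools from which mitochondrial DNA, NAD and coenzyme A are drawn. Of the 11 described here, 1 was measured higher and 10 lower, with a median of -0.13 and none past the test. Slc25a25 (SCaMC-2), a calcium-activated ATP-Mg/phosphate exchanger, had the second lowest difference of the family. It was at 0.00, -0.42 and 0.04 on the mutant arrays and at -0.06, 0.76, 0.10 and 0.02 on the wild-type arrays. Only mutant replicate 2 was clearly low and only wild-type replicate 2 clearly high, and the other 5 arrays lay within -0.06 and 0.10. The difference was -0.33 ± 0.22 (95% interval -0.84 to 0.19), and -0.14 without wild-type replicate 2. Its relatives Slc25a23, Slc25a24 and Slc25a41 differed by 0.10 ± 0.08, -0.10 ± 0.17 and -0.05 ± 0.08; the first was 0.05 without mutant replicate 1.

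The pyrimidine nucleotide carriers Slc25a33 and Slc25a36 import the pyrimidine nucleotides from which mitochondrial nucleic acids are made. Slc25a33 was at 0.00, -0.27 and 0.02 against 0.12, -0.03, 0.48 and -0.13, a difference of -0.19 ± 0.16 that was -0.07 without wild-type replicate 3. Slc25a36 was at -0.56, 1.05 and -0.33 against 0.00, -0.31, 0.28 and 0.25. Its mutant values spanned a wider range than its wild-type values, and the difference of -0.0020 ± 0.38 was -0.50 without mutant replicate 2 and 0.30 without mutant replicate 1. Among the coenzyme carriers, Slc25a42 (coenzyme A) differed by -0.15 ± 0.17 (-0.0097 without mutant replicate 2), the peroxisomal Slc25a17 by -0.18 ± 0.30, Slc25a32 (folate and FAD) by -0.08 ± 0.12 and Slc25a51 (NAD) by -0.13 ± 0.16. Slc25a16, which is linked to coenzyme A transport, was at -0.96, 0.81 and -0.20 against 0.65, 0.00, -0.76 and 0.59. Each group held values above 0.5 and below -0.7, and the difference was -0.24 ± 0.48.

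Slc25a44, which imports branched-chain amino acids, had the lowest difference of the family and was the only carrier whose groups did not overlap. It was at -0.17, -0.75 and -0.18 on the mutant arrays and at 0.01, 0.09, 0.30 and 0.00 on the wild-type arrays. Every mutant value lay below every wild-type value, which held for 1 of 44 carriers and for 1.20% of all genes; the reverse held for 0 carriers and 0.885% of all genes. The difference was -0.47 ± 0.16 (95% interval -0.85 to -0.09), a level 1.39 times higher in wild-type if the values are log2. The limma p was 0.022 before and 1.00 after Benjamini-Hochberg adjustment. The exact two-sided permutation p was 0.029, the smallest that 35 splits of 3 and 4 arrays allow. The gene was singled out as the lowest of 44 carriers, and the permutation p takes no account of that choice. Without mutant replicate 2 the difference was -0.28.

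The separation held for 1 of the 3 probe sets of Slc25a44. That probe set, in the class of 8 to 16, set the value of the gene. The other 2, in the class of 4 to 8, differed by -0.21 and 0.39, so 1 ran the opposite way, with mutant replicate 2 at 0.76 and wild-type replicate 3 at -0.52. Averaged over its 3 probe sets the gene differed by -0.10 and the groups overlapped. Among the 23 carriers with several probe sets, the sign of the genotype difference varied between them for 15.

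Slc25a27 (UCP4), an uncoupling protein relative best known from the nervous system, had the highest difference. It was at 0.01, 0.33 and 0.11 on the mutant arrays and at 0.02, -0.08, -0.43 and -0.18 on the wild-type arrays. The groups met at wild-type replicate 1, which lay just above mutant replicate 1. The difference was 0.32 ± 0.13 (95% interval 0.0028 to 0.63), with an exact two-sided permutation p of 0.086 over 35 splits. It kept its sign without any single array (0.23 to 0.39), and was 0.18 over all 4 of its probe sets. The relatives Slc25a14 and Slc25a30 were measured higher by 0.03 ± 0.08 and 0.09 ± 0.09, none past the adjusted test (46.5% of all genes were measured higher). The uncoupling proteins proper, named Ucp on the array, gave -0.91 ± 1.45 for Ucp1 and 0.20 ± 0.18 for Ucp3. Ucp2 was not measured. Ucp1 ran from -3.19 to 3.58 among the wild-type arrays, so the sign of its difference says little. Nerve markers (5 of 7 measured) had means of -0.15 to 0.11 on the mutant arrays and -0.28 to 0.28 on the wild-type arrays.

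**Figure D3:**
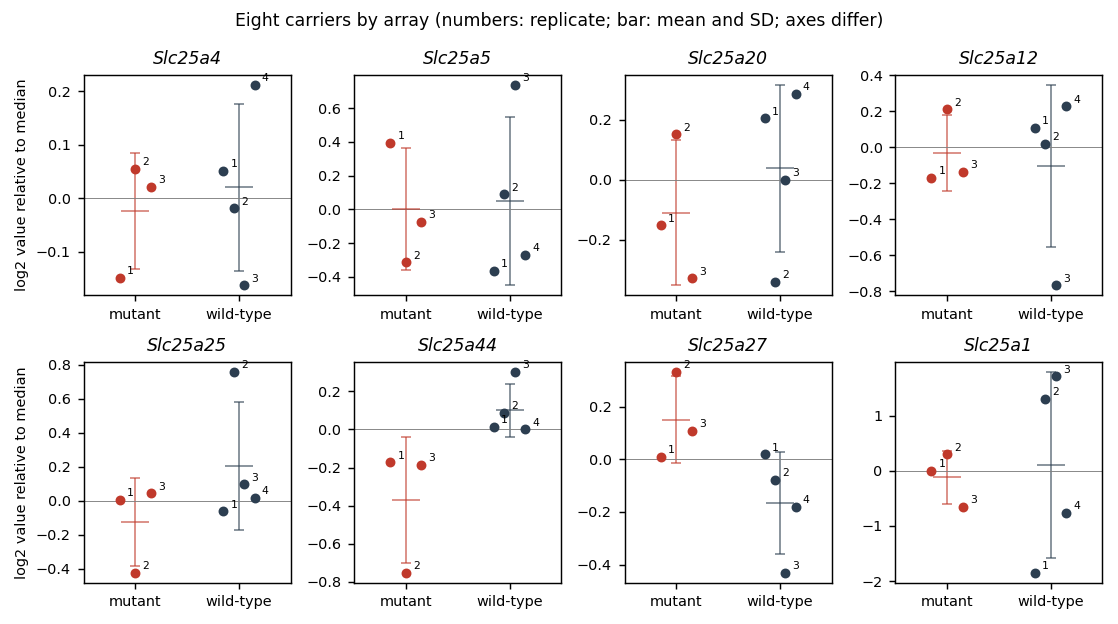
Values of 8 carriers on each array (vertical axis, log2 value relative to the median of the 7 arrays; axes differ between panels). Points are arrays with their replicate number, and the bar gives the mean and SD of the group (n = 3 mutant, n = 4 wild-type). The groups are apart for Slc25a44 and overlap in the other panels.

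The remaining carriers gave small differences. Of the carriers of di- and tricarboxylates, 1 of 5 measured was higher and 4 lower (-0.22 to 0.13; Slc25a21 was not measured). Slc25a11, the oxoglutarate-malate carrier of the malate-aspartate shuttle, was at 0.18, -0.22 and 0.07 against -0.56, 0.10, 0.00 and -0.04. Its difference of 0.13 ± 0.18 was -0.01 without wild-type replicate 1. Slc25a1, the citrate carrier that supplies cytosolic acetyl-CoA for fat synthesis, had the widest spread of the family, 3.56 log2 units. It was at 0.00, 0.29 and -0.65 on the mutant arrays and at -1.85, 1.30, 1.71 and -0.76 on the wild-type arrays. The difference of -0.22 ± 0.85 was far smaller than the spread among wild-type arrays alone. Its order among the wild-type arrays, with replicate 1 lowest and replicate 3 highest, was also that of the adipocyte mean. That mean was -1.23, 0.43, 1.31 and -0.0041 in wild-type replicates 1 to 4. The mutant arrays did not share an order. Among them replicate 2 was highest for Slc25a1 and lowest for the adipocyte mean (0.21, -0.50 and -0.24 in replicates 1 to 3). The part of fat tissue in this spread was not tested.

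Both mitoferrins, which import iron, were measured higher, Slc25a28 by 0.14 ± 0.17 (0.01 without mutant replicate 2) and Slc25a37 by 0.02 ± 0.11. Slc25a26, which imports S-adenosylmethionine, ranked below Slc25a27 and Slc25a45, at -0.24, 0.25 and 0.00 against -0.11, -0.28, -0.22 and 0.04, a difference of 0.15 ± 0.14 that was 0.02 without mutant replicate 2. The glutathione carrier Slc25a39 and its relative Slc25a40 differed by -0.03 ± 0.24 and 0.02 ± 0.08. The ornithine carriers Slc25a15 and Slc25a2 were at 0.0002 ± 0.26 and -0.08 ± 0.09, and the glycine carrier Slc25a38 at -0.11 ± 0.16. Slc25a46, an outer membrane member, differed by -0.09 ± 0.17, and Slc25a53 and Slc25a54 by -0.01 ± 0.10 and -0.12 ± 0.08. Slc25a10, Slc25a34 and Slc25a35 differed by -0.16 ± 0.21, -0.14 ± 0.40 and -0.0023 ± 0.33.

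A division of the arrays that crossed the genotypes was seen in the correlations between arrays and is described with no test, since it was chosen from these data. Mutant replicate 2, wild-type replicate 1 and wild-type replicate 4 correlated positively with each other over all 45101 probe sets (Pearson r 0.36 to 0.49). Among the other 4 arrays r ran from -0.08 (mutant replicate 3 with wild-type replicate 3) to 0.32 (mutant replicate 1 with wild-type replicate 3). Between the sets r was below 0 for every pair. The arrays share the centring, which pulls r down. Over the 44 carriers, r was 0.72 between wild-type replicates 1 and 4 and -0.76 between wild-type replicates 1 and 3, while mutant replicates 1 and 2 gave -0.70. Among carriers mutant replicate 2 was less close to wild-type replicates 1 and 4 (0.29 and 0.26), and mutant replicate 3, outside the set, was about as close to them (0.34 and 0.29; -0.22 and -0.23 over all probe sets). The mean of these 3 arrays differed from that of the other 4 by more than 0.2 in size for 24 carriers (54.5%, against 41% of all genes), and by more than the genotype difference for 31 (70.5%, against 69.6%, a share near that of all genes). What the 3 arrays share is not given in the labels. Within the 3 arrays (mutant replicate 2 against wild-type replicates 1 and 4) the median genotype difference over carriers was 0.02, and within the other 4 it was -0.09, against 0.01 and -0.02 over all genes. Both within-set differences were negative for 13 carriers (29.5%, against 25.4% of all genes) and both positive for 8 (18.2%, against 22.1%). Slc25a44 gave -0.76 and -0.37, Slc25a25 -0.40 and -0.40, Slc25a27 0.41 and 0.31, and Slc25a4 -0.08 and 0.03.

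Some carriers held probe sets that ran in opposite directions over these arrays. For Slc25a5, Slc25a20 and Slc25a44, at least 1 probe set was over 0.2 higher on the 3 arrays than on the other 4 and another over 0.2 lower. The brighter probe set of Slc25a20 was at 0.15 to 0.29 on the 3 arrays and at -0.34 to 0.00 on the other 4, whereas its dimmer probe set was at -0.34 to -0.26 and 0.00 to 0.58. The 2 probe sets of Slc25a20 thus set the 3 arrays against the other 4 in opposite directions, although wild-type replicate 3 was the highest of those 4 in both, and they differed between genotypes by -0.15 and -0.07. Of the 8 probe sets of Slc25a5, 6 were low on the 3 arrays and 2 were at 0.00 to 0.34 there. How a probe set's position in its transcript or its labelling bears on this was not tested.

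**Figure D4:**
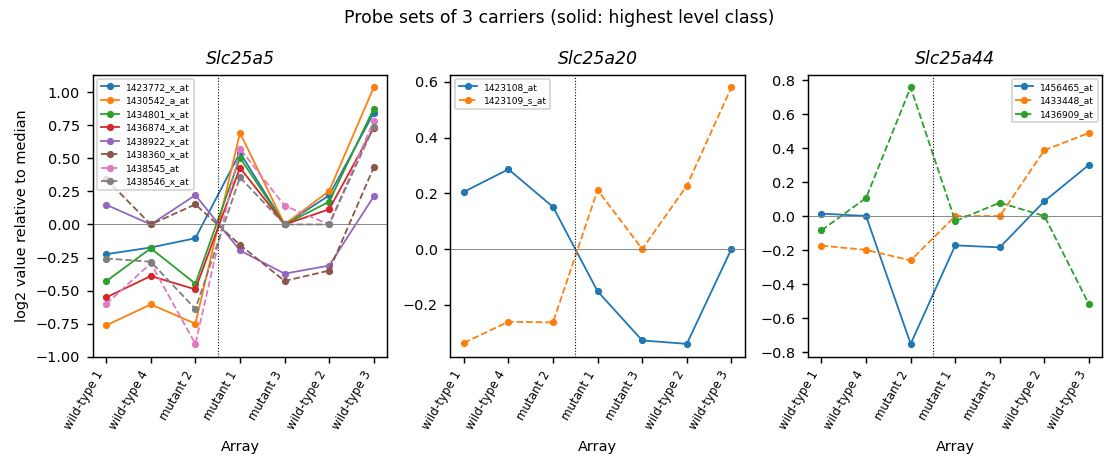
Probe sets of Slc25a5, Slc25a20 and Slc25a44 (vertical axis, log2 value relative to the median of the 7 arrays) on the 7 arrays (horizontal axis; the dotted line parts wild-type 1, wild-type 4 and mutant 2 from the rest). Solid lines are probe sets in the highest level class of the gene, dashed lines the others; in each panel some lines rise from left to right and others fall.

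Genes that work with the carriers were listed for comparison, and 29 of them were measured. None passed the test or had an unadjusted limma p below 0.05, 15 were higher and 14 lower, and the median difference was 0.0028. The porins, the outer membrane channels through which carrier substrates pass, differed by -0.10 to 0.12 (Vdac1, Vdac2 and Vdac3). The TIM22 import route, which inserts carriers into the inner membrane, had 5 of 7 members higher (46.5% of all genes were higher). Their differences ran from -0.12 to 0.17, with limma standard errors of 0.10 to 0.37. In the carnitine shuttle, Cpt1b was not measured. Cpt1a differed by 0.25 ± 0.18, Cpt1c by -0.12 ± 0.21, Cpt2 by 0.04 ± 0.30 and Crat by -0.22 ± 0.14. Slc25a20 differed by -0.15. Cpt1a was at 0.60 in mutant replicate 3 and at 0.00 in mutant replicates 1 and 2. The malate-aspartate shuttle enzymes Mdh1, Mdh2, Got1 and Got2 with Glud1 all lay within -0.04 and 0.04. Among members of the family under other names, Ucp3, the muscle uncoupling protein, was at -0.05, -0.04 and 0.39 on the mutant arrays and at 0.02, 0.05, -0.52 and 0.05 on the wild-type arrays (0.20 ± 0.18). Ucp1, the brown fat uncoupling protein, ranged from -3.19 in wild-type replicate 1 to 3.58 in wild-type replicate 3, and is itself among the adipocyte markers above; its difference was -0.91 ± 1.45.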

How the data were processed

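Expression was measured on 1 single-colour Affymetrix array for each of 7 samples, grouped by sample title. The deposited values of 45101 probe sets are taken as log2 values. The median of every probe set over the arrays is exactly 0, so they were centred before deposit. The submitters' processing notes name GCOS 4.0. Summary method, scaling and log base are not given in the sources used here. The base of 2 is an assumption, which the spacing of the stored numbers does not settle. That spacing gave each probe set's most probable level class (17.6% of probe sets had a probability under 0.9). The platform's probe annotation was updated by Entrez identifier with a RefSeq table (34741 of 34945 probe sets with 1 symbol; 204 kept theirs, 932 with several and 9211 unnamed were left out). A gene took the mean of its probe sets in its highest class.

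The gene table was fitted in R 4.3.3 by limma 3.58.1 (eBayes after lmFit), 3 against 4 arrays, two-sided, no covariate and no filter, with Benjamini-Hochberg adjustment over 18193 genes and a threshold of 0.05; the script was tested on simulated data. Errors after ± are limma standard errors. Slc25a4, Slc25a27 and Slc25a44 were set against an exact permutation test. Slc25a27 and Slc25a44 are the ends of the ranking, and the permutation p takes no account of that choice. Arrays give no depth; their number limits the precision. Nothing says how the samples were raised or housed, so p-values measure the spread between these samples. Members, role lists and partner genes were chosen with earlier results of these data known. Named carriers are the ADP/ATP, carnitine, glutamate and nucleotide lists, the 5 highest and 5 lowest differences and any with separate groups; others stand by role. Alternatives were quantile normalisation, all probe sets averaged, single probe sets, a level filter, other variance priors, age, a replicate block and arrays left out; a block for 3 arrays that move together was chosen after seeing the data.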

Additional observations from a re-analysis of the deposited data

Results flagged for a closer look

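Outlying arrays were looked for in the 4 wild-type arrays, over 30 measures, and 3 were found; chance alone gives about 1 in 20. All 3 are wild-type replicate 3. The median over the 44 carriers was 0.06 there (0.0644) and 0.00 on the other wild-type arrays. Slc25a32 was at 0.05 (0.0498) and Slc25a41 at 0.08 (0.0754) there, with 0.00 on the other 3. In these cases the other 3 arrays were all at exactly 0, and the gap then equals the whole range however small it is. Centring puts every value tied with the median at 0, and 56.4% of probe sets have more than 1 array at exactly 0. Where the ties come from was not tested.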

How the results depend on the processing

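No carrier passed the adjusted limma threshold under any of the 17 alternatives, and neither did any other gene or probe set tested. The median difference over carriers was negative under each: -0.0439 over all probe sets averaged, -0.0464 on single probe sets and -0.0986 to -0.0125 with 1 array left out. The median over all genes was also negative except with the level filter (0.0030), and ran from -0.0189 to -0.0028 with 1 array left out. Without mutant replicate 3 the 2 medians were close, at -0.0125 over carriers and -0.0101 over all genes. Carriers with all mutant above all wild-type values numbered 0; they were 1 with all probe sets averaged (which adds dimmer probe sets), 2 without wild-type replicates 1 and 2 and 0 to 1 with 1 array left out. Those below numbered 1, and were 0, 3 and 1 to 4. Fewer arrays make separation easier for every gene. The shares of all genes are given for the main setting only (0.885% above and 1.20% below). The counts under the alternatives therefore cannot be read as a trait of the carriers. With the replicate block, which leaves wild-type replicate 4 alone, 0 carriers were called and the median was -0.0857; same-numbered samples did not deviate together (r = -0.47, -0.28 and 0.13) and did not each correlate best with their own number, so the numbers were not taken as pairs.

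Of 461 alternative values of the 29 named carriers, 40 changed sign. These values leave out the fit on single probe sets. By this tally 11 carriers had no change of sign, Slc25a44, Slc25a27 and Slc25a25 among them. A single probe set of Slc25a44 nevertheless ran the opposite way to the gene, at 0.39. Under quantile normalisation Slc25a5 was 0.0322, Slc25a12 -0.0588 and Slc25a31 0.0167. With the replicate block Slc25a4 was 0.0197, Slc25a31 0.0224 and Slc25a36 0.0620. With the block of 3 arrays, added after seeing the data, Slc25a31 was 0.0019 and Slc25a36 0.1115. With all probe sets averaged Slc25a36 was 0.1529 and Slc25a51 0.0050; with age as a covariate Slc25a36 was 0.0027. With 1 array left out, the ranges that crossed 0 were -0.8693 to 0.3160 for Slc25a1, -0.1055 to 0.0197 for Slc25a4, -0.2433 to 0.1834 for Slc25a5, -0.0106 to 0.2485 for Slc25a11, -0.1502 to 0.1813 for Slc25a12, -0.2644 to 0.0582 for Slc25a13, -0.7014 to 0.1849 for Slc25a16, -0.3427 to 0.0794 for Slc25a17, -0.3886 to 0.0072 for Slc25a22, -0.1962 to 0.0237 for Slc25a24, -0.2843 to 0.0702 for Slc25a29, -0.0288 to 0.0224 for Slc25a31, -0.1898 to 0.0485 for Slc25a32, -0.5018 to 0.3034 for Slc25a36, -0.0861 to 0.0059 for Slc25a41, -0.2426 to 0.0410 for Slc25a47 and -0.2857 to 0.0031 for Slc25a48. The cause of these changes was not tested.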
